A study of Mus musculus with 24 samples.

Results

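Liver cells store triglyceride in lipid droplets, which consist of a neutral lipid core under a phospholipid monolayer that carries proteins. Perilipins (Plin genes) coat the droplet and govern the access of lipases, and CIDE proteins (Cidea, Cideb and Cidec) sit where droplets touch and move lipid from the smaller to the larger droplet. Triglyceride breakdown starts with adipose triglyceride lipase, encoded by Pnpla2, which is activated by Abhd5 and inhibited by G0s2. Fatty liver is defined by the excess of these droplets, and common variation in human PNPLA3, a droplet protein related to Pnpla2, is a known risk factor for it. The 10 genes described here, Plin2, Plin3, Plin4, Plin5, Cidea, Cideb, Cidec, G0s2, Pnpla2 and Pnpla3, were taken by their symbols out of 56205 genes in the table of counts.

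The livers came from C57BL/6J mice that received a high-fat diet or its control diet for 20 weeks. The methods of the study describe the high-fat diet as rich in palm oil, fructose and cholesterol, use young adult mice of both sexes, and name no transgene or deletion in these animals. RNA-Seq of poly(A)-selected RNA from whole liver gave 12 high-fat and 12 control libraries, which the labels number from 1 to 12 within each diet. The series text gives 6 mice per diet and sex, but no label assigns a sex to a library.

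Sequencing depth was 14468418 to 22112552 counts on genes per library, and 3 counts corresponded on average to 0.148 CPM (counts per 1000000 scaled counts) in high-fat libraries and 0.175 CPM in control libraries. Libraries numbered 1 to 6 and 7 to 12 differed in both diets: the X-linked Xist had 2664 to 6285 counts in each of the former and 0 to 3 in each of the latter, and the Y-linked Ddx3y had 0 in the former and 448 to 1016 in the latter. Results are therefore also given within each set of 12 libraries. Control replicate 10 had the highest G0s2 and Cideb, control replicate 11 the highest control values of Cidea, Cidec and Plin4, and high-fat replicate 9 the lowest G0s2, Cideb and Pnpla3 of its diet, and the main results for Cidec, Plin4, G0s2 and Cideb are also given without some or all of these 3 libraries. Hepatocyte transcripts identified the tissue, with Alb alone at 482163 to 1952671 counts per library. Of 9 adipocyte markers, 5 were near 0, with Lep at 0 counts in all 24 libraries and Adipoq, Retn, Ucp1 and the adipocyte perilipin Plin1 at 7 counts or fewer in every library. The other 4, Cfd, Fabp4, Lipe and Car3, passed the filter on low counts, and Cfd reached 355 counts.

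Promoter sequences are shown for Cidec, Plin4 and G0s2, the genes whose counts differed most clearly between the diets, and for Plin2, the most abundant perilipin, whose counts did not pass the test. Each is the 250 bases before the RefSeq start site in GRCm38.p6, written 5′ to 3′ on the strand of the gene, which is the minus strand in each case. RefSeq windows were used for 9 of the 10 genes, and Cidea is named only. The Cidec windows are chr6:113435761-113436010 for start 1 and chr6:113434765-113435014 for start 2. The others are chr17:56109783-56110032 for Plin4, chr1:193273189-193273438 for G0s2 and chr4:86670060-86670309 for Plin2. Capitals mark matches to a motif searched on both strands.
Cidec start 1: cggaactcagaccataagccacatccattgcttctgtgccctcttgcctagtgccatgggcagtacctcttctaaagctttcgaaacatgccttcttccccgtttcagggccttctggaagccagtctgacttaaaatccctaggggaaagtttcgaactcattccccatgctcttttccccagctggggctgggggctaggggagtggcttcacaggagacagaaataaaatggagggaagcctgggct
Cidec start 2: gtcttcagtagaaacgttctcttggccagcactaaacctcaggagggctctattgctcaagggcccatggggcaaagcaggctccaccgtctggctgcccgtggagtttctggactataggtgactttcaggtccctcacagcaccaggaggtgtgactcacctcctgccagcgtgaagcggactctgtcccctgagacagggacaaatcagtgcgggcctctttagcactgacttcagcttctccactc
Plin4: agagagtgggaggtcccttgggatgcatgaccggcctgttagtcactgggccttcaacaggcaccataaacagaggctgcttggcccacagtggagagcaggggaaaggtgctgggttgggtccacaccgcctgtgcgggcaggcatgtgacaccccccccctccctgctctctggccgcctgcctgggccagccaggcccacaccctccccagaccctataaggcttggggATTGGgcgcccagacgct
G0s2: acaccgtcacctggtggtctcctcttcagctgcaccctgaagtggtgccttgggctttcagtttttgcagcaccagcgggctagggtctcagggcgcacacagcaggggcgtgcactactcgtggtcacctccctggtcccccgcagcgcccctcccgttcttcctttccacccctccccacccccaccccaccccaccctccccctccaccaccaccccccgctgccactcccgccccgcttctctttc
Plin2: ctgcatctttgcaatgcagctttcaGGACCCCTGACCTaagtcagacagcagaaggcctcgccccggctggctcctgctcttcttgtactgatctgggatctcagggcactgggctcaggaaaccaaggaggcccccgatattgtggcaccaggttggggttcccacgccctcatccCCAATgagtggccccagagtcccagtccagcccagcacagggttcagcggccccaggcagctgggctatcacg

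The motifs searched were the DR1 element bound by PPAR and RXR, which is AGGTCA repeated after 1 base, with at most 2 mismatches, its single unit AGGTCA, the E-box (letters CACGTG), the TATA box (letters TATAAA) and the CCAAT box. The DR1 element occurred in 3.23% of the 32817 distinct windows searched, the single unit in 14% of them, the E-box in 6.02%, the TATA box in 12.4% and the CCAAT box in 33.8%. These windows leave out some genes, Cidea among them. The Plin2 window held a DR1 element with 2 mismatches that begins 225 bases before the start on the strand opposite to the gene, which contains an exact AGGTCA unit, and a CCAAT box 73 bases before the start. The Plin4 window held a CCAAT box, on the opposite strand, 18 bases before the start. The Cidec and G0s2 windows held none of these letters, which says nothing of sites elsewhere or of the factors themselves. Plin4 and Plin5 are neighbours on chromosome 17 on the same strand, 1798 bases apart, at 56100591 to 56109803 and 56111601 to 56117596 (GENCODE M21, GRCm38). In the same annotation Cidec spans chr6:113424634-113435760, G0s2 chr1:193272161-193273217, Plin2 chr4:86648386-86670060, Plin3 chr17:56277476-56292873 and Cideb chr14:55754050-55758458, all on the minus strand. Pnpla2 spans chr7:141455198-141460743 and Pnpla3 chr15:84167837-84187236, both on the plus strand.

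All 10 genes passed the filter on low counts (at least 1 count in at least 12 libraries), and edgeR's quasi-likelihood test covered 17913 genes. With thresholds of 0.01 on the adjusted p and 0.5 on the size of the log2 fold change, Cidec and Plin4 rose in high-fat livers and G0s2 fell. In whole liver, fewer cells of a type and less RNA per cell cannot be told apart. These were 2 of 10 genes higher, against 13.2% of all genes tested, and 1 of 10 lower, against 4.99% of all genes. A further gene, Plin3, passed the adjusted p alone, which 25.8% of all genes did. The median log2 fold change of the 10 genes was -0.03, the same as that of all genes, with 5 above 0 and 5 below. Scaling by library totals alone, without TMM, shifted the all-gene median from -0.03 to 0.26 and the split of calls from 2372 higher and 894 lower to 3827 higher and 226 lower, so that 94.4% instead of 72.6% of the calls were higher. Under that scaling Cidec, Plin4 and G0s2 were called in the same directions and Plin3 was also called higher.

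**Figure D1:**
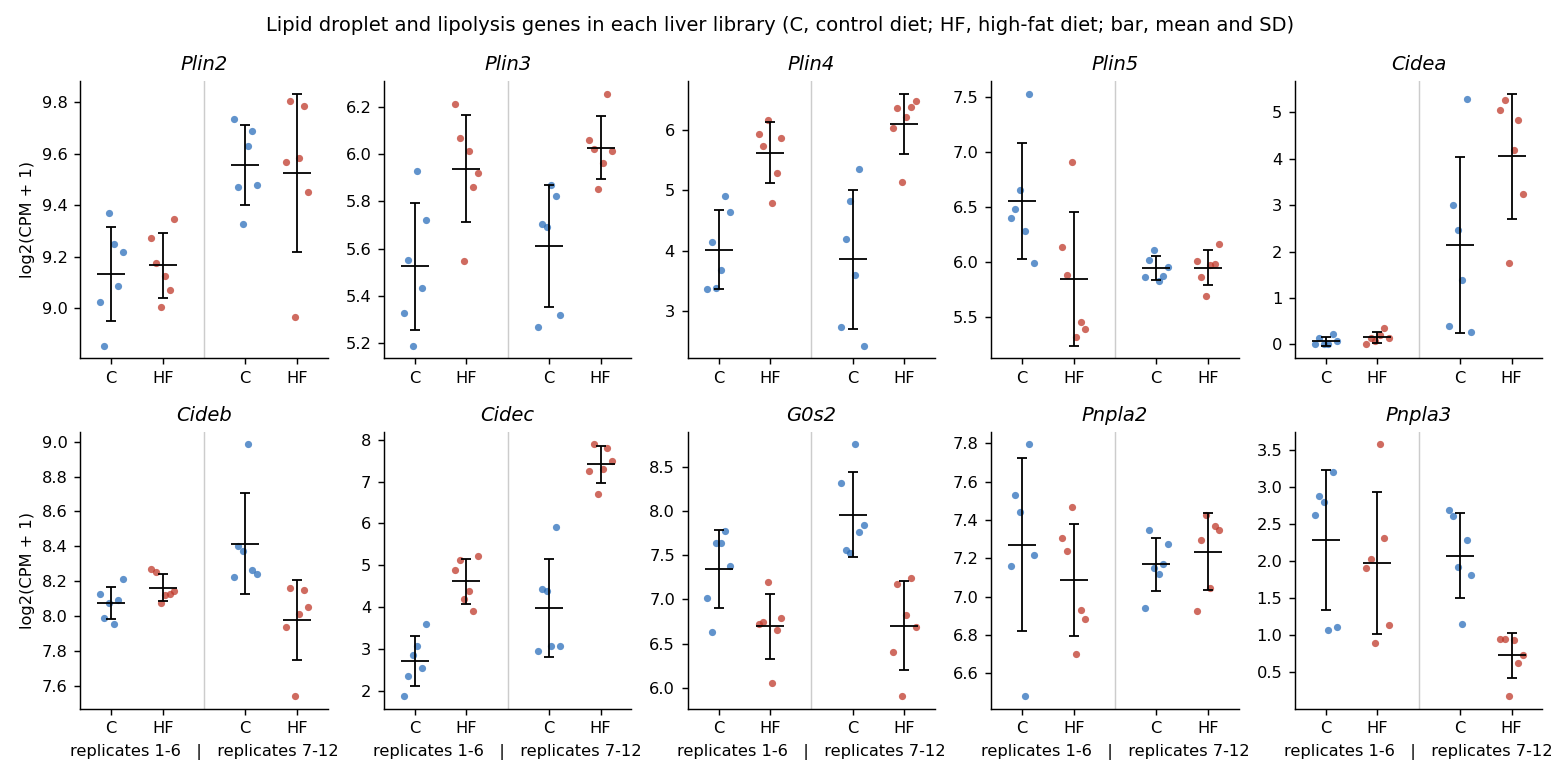
Level of each of the 10 genes in each of the 24 libraries, as log2(CPM + 1) on its own vertical axis, for control diet (C, blue) and high-fat diet (HF, red), with replicates 1 to 6 on the left and 7 to 12 on the right of each panel; each point is 1 library and the black bars are the mean and SD of 6 libraries. Cidec separated the diets within both sets, Plin2 did not in either, and Cidea was near 0 in all 12 libraries numbered 1 to 6.

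Among the perilipins, Plin2, the main droplet coat of hepatocytes, did not pass the test. It ranged from 499 to 895 CPM in high-fat livers (median 635) and from 462 to 852 CPM in control livers (median 651). The diets overlapped, with 2 high-fat libraries above the highest control library and 0 below the lowest. Its log2 fold change was 0.01 (SE 0.12, 95% interval -0.24 to 0.25, n = 12 per diet, edgeR adjusted p = 0.97). With library totals alone it was 0.32, close to the shift of all genes.

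Plin4, a perilipin best known from adipocytes and muscle, was between 26.6 and 88.3 CPM in high-fat livers (median 62.1) and between 4.41 and 40 CPM in control livers (median 14.3). Every high-fat library lay above the control median, and 9 of the 12 lay above the highest control library, replicate 11. This gave a log2 fold change of 1.82 (SE 0.29, edgeR adjusted p = 3.04e-05), a 3.53-fold rise, and it was 2.02 without the 3 libraries that stand apart. It passed in each set of libraries on its own as well, with log2 fold changes of 1.61 (SE 0.29) in replicates 1 to 6 and 2.02 (SE 0.45) in replicates 7 to 12. Plin4 shares only 17 exon bases with Hdgfl2 on the opposite strand, whose log2 fold change was -0.09. Markers of skeletal muscle, another tissue that uses Plin4, were near 0 (5 markers, summed level 0.31 to 1.28 CPM against 0.173 to 1.48 CPM), with Ckm at 4 counts or fewer and Myh4 at 1 count or fewer in every library.

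Plin3, a perilipin found in most cells, was between 45.8 and 75.4 CPM in high-fat livers (median 63.6) and between 35.5 and 59.9 CPM in control livers (median 48.3). Of the 12 high-fat libraries, 8 lay above the highest control library. The log2 fold change of 0.41 (SE 0.09, 95% interval 0.22 to 0.60, edgeR adjusted p = 9.67e-04) passed the adjusted p but was below the fold threshold. Plin5, which tethers droplets to mitochondria in oxidative tissues, was between 38.7 and 119 CPM in high-fat livers (median 59.8) and between 55.8 and 184 CPM in control livers (median 65.9). The highest value in each diet came from a single library numbered 1 to 6. Its log2 fold change was -0.38 (SE 0.19, 95% interval -0.78 to 0.01, edgeR adjusted p = 0.109). It was -0.20 without control replicate 5 (edgeR adjusted p = 0.302) and -0.51 without high-fat replicate 3 (edgeR adjusted p = 0.0201). As a share of the summed perilipin level per kilobase of exon, Plin2 took a median of 78.5% in high-fat livers and 78.1% in control livers, while Plin4 took 4.32% and 1.05%. Of the neighbouring genes Plin4 and Plin5, only Plin4 passed the test.

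The CIDE family gave the largest difference of the 10 genes. Cidec, also called Fsp27 and known for making large droplets in white fat and fatty liver, was between 13.9 and 237 CPM in high-fat livers (median 69.7) and between 2.65 and 59.8 CPM in control livers (median 7.38). The value of 59.8 CPM came from control replicate 11, and the next control library had 20.7 CPM. Cidec had a log2 fold change of 2.93 (SE 0.56, edgeR adjusted p = 2.05e-04), a 7.6-fold rise, and it was 3.49 without control replicate 11 and 3.46 without the 3 libraries that stand apart. Every high-fat library lay above the control median.

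Cidec also differed between the sets of libraries. In replicates 1 to 6 it was 13.9 to 36.1 CPM in high-fat livers and 2.65 to 11.1 CPM in control livers, and in replicates 7 to 12 it was 103 to 237 CPM and 6.7 to 59.8 CPM. The diets did not overlap in either set, a separation upward that 3.51% of all genes showed in replicates 1 to 6 and 12.6% in replicates 7 to 12. The log2 fold change between diets was 2.04 (SE 0.30, edgeR adjusted p = 7.40e-04) in replicates 1 to 6 and 3.12 (SE 0.50, edgeR adjusted p = 2.30e-04) in replicates 7 to 12. The difference between these effects was 1.07 on the log2 scale (95% interval -0.18 to 2.31, edgeR adjusted p = 0.283). Without the 3 libraries that stand apart it was 1.76 (edgeR adjusted p = 0.0142), which did not pass 0.01 either. Those libraries were chosen after seeing the data and include control replicate 11, the highest control for Cidec. Leaving it out raises the effect in replicates 7 to 12, so the second value is no separate support. Among high-fat livers, Cidec was higher in replicates 7 to 12 than in 1 to 6 by 2.82 on the log2 scale (SE 0.25, edgeR adjusted p = 4.77e-06), without overlap. That contrast was added after seeing the data; 4.13% of all genes were called higher in it and 4.71% separated the sets upward without overlap.

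Cidea, known from brown fat and induced in steatotic liver, was nearly absent from libraries numbered 1 to 6. There it had 0 to 5 counts in high-fat livers and 0 to 3 in control livers, at or near the level of 3 counts below which no fold is given. Among replicates 7 to 12 it was between 2.37 and 37.5 CPM in high-fat livers (median 22.5) and between 0.197 and 38.3 CPM in control livers (median 3.09). The sets were called different in high-fat livers (edgeR adjusted p = 1.80e-05) and in control livers (edgeR adjusted p = 0.0033), where 1.56% of all genes were called higher in replicates 7 to 12. The sets did not overlap in high-fat livers. In control livers replicate 5 (0.176 CPM) and replicate 12 (0.197 CPM) were the nearest across the sets, both at the floor of 3 counts.

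Cidea did not pass the test between the diets. Over all 24 libraries the log2 fold change was 1.27 (SE 1.06, 95% interval -0.93 to 3.47, edgeR adjusted p = 0.356). Its highest value of all, 38.3 CPM, belonged to control replicate 11, the same library that was the highest control for Cidec and Plin4, and the next control library had 7.01 CPM. Its log2 fold change was 3.08 when control replicate 11 was left out (edgeR adjusted p = 0.0253), still above the threshold of 0.01. B430212C06Rik overlaps Cidea on the opposite strand without sharing exon bases.

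Cideb, the hepatocyte member of the family, which takes part in the lipidation of very-low-density lipoprotein, was between 185 and 307 CPM in high-fat livers (median 278) and between 247 and 506 CPM in control livers (median 297). The control value of 506 CPM was that of replicate 10, and the next control library had 337 CPM. Over all libraries the difference was -0.19 on the log2 scale (SE 0.10, 95% interval -0.40 to 0.02, edgeR adjusted p = 0.137), and it was -0.10 without control replicate 10 (edgeR adjusted p = 0.283) and 0.11 with library totals alone. In replicates 7 to 12 each of the 6 high-fat libraries lay below each of the 6 control libraries, as was the case downward for 9.66% of all genes, while in replicates 1 to 6 the medians were 280.1 and 269.8 CPM. Cideb shares 1136 exon bases with Nop9 on the opposite strand, so reads of Nop9, which had a median of 445.5 counts against 5537.5 for Cideb, cannot be told apart from those of Cideb where the counting did not use strand.

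Per kilobase of exon, Cideb was the main CIDE transcript in control livers, with 75.6% to 99.2% of the summed level of the family (median 98%). On the high-fat diet its share was 90.7% to 96% in replicates 1 to 6 and 54.3% to 68.2% in replicates 7 to 12. Cidec took 3.86% to 9.3% in high-fat livers in replicates 1 to 6 and 29.9% to 36.2% in replicates 7 to 12, against 0.759% to 2.93% and 1.14% to 11.8% in control livers. The share of Cidea reached 10.6% in high-fat livers and 12.6% in control replicate 11. The ratio of Cideb to Cidec was lower in high-fat livers by 2.85 on the log2 scale (two-sided permutation test, adjusted p = 4.95e-04 over 9 ratios).

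**Figure D2:**
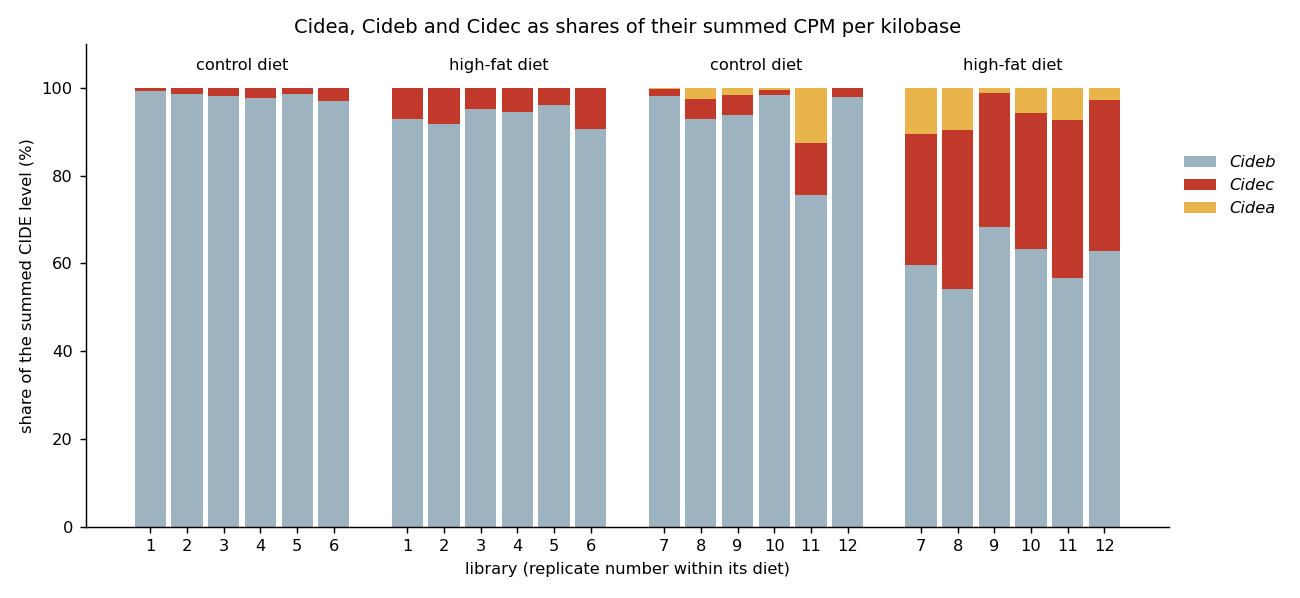
Shares of Cideb (grey), Cidec (red) and Cidea (yellow) in their summed CPM per kilobase of exon, in percent on the vertical axis, with 1 bar per library grouped by diet and set of replicate numbers. Cidec took 29.9% to 36.2% in the 6 high-fat libraries numbered 7 to 12 and at most 11.8% in any control library.

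Of the lipase and its inhibitor, the inhibitor was lower and the lipase did not pass the test. Pnpla2 was between 103 and 176 CPM in high-fat livers (median 153) and between 88.3 and 221 CPM in control livers (median 145), with a log2 fold change of -0.07 (SE 0.12, 95% interval -0.31 to 0.17, edgeR adjusted p = 0.653), which turned to 0.22 with library totals alone. G0s2 was between 59 and 151 CPM in high-fat livers (median 105) and between 98 and 431 CPM in control livers (median 199). No high-fat library reached the control median, and 10 of the 12 control libraries lay above the highest high-fat library.

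G0s2 in high-fat livers was 0.499 of its control level in the fit (SE 0.19 and 95% interval -1.40 to -0.61 on the log2 scale, edgeR adjusted p = 1.86e-04). Its log2 fold change was -0.79 without the 3 libraries that stand apart and -0.67 with library totals alone. It was -1.25 (SE 0.25, edgeR adjusted p = 0.00139) in replicates 7 to 12, where 7.99% of all genes were called lower. The diets did not overlap there, a separation downward shared by 9.66% of all genes. In replicates 1 to 6 it was -0.66 (SE 0.19, edgeR adjusted p = 0.0336) and was not called. The difference between the sets was -0.59 (95% interval -1.29 to 0.11, edgeR adjusted p = 0.296). G0s2 lies within Lamb3, which is on the opposite strand, and shares no exon bases with it.

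Abhd5, the coactivator of the lipase, had a log2 fold change of -0.18 (SE 0.10, 95% interval -0.39 to 0.02, edgeR adjusted p = 0.141), with 17.5 to 31.5 CPM in high-fat livers and 21.5 to 39.6 CPM in control livers. The following enzymes of the pathway, hormone-sensitive lipase (Lipe, -0.16, SE 0.12) and monoglyceride lipase (Mgll, -0.37, SE 0.13), were not called either, with edgeR adjusted p of 0.285 and 0.0233. In replicates 7 to 12 the highest high-fat value of Lipe, 34.1 CPM, was below the lowest control value, 34.5 CPM, a separation downward that 9.66% of all genes showed. The log2 fold change of Lipe was -0.45 (SE 0.12) in that set and 0.20 (SE 0.13) in replicates 1 to 6. Mgll separated downward in replicates 1 to 6 instead, at 221 to 306 CPM in high-fat and 318 to 461 CPM in control livers. No all-gene share of that separation was taken. The log2 fold change of Mgll was -0.51 (SE 0.12, edgeR adjusted p = 0.0104) there and -0.17 (SE 0.17) in replicates 7 to 12.

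Pnpla3 had the lowest median per kilobase of the 10 genes over the 12 high-fat livers, although Cidea was lower in replicates 1 to 6. It was between 0.127 and 10.9 CPM in high-fat livers (median 0.919) and between 1.09 and 8.16 CPM in control livers (median 4.46). The highest library of all was high-fat replicate 4, with 218 counts, and the lowest was high-fat replicate 9, with 3 counts. Over all libraries the log2 fold change was -0.88 (SE 0.49, 95% interval -1.89 to 0.14, edgeR adjusted p = 0.16). Without high-fat replicate 4 it was -1.50 (edgeR adjusted p = 0.00663) and passed the thresholds.

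Pnpla3 in replicates 7 to 12 was 0.127 to 0.922 CPM in high-fat livers and 1.22 to 5.41 CPM in control livers, without overlap, as for 9.66% of all genes downward. It fell there by 2.35 on the log2 scale (SE 0.41, edgeR adjusted p = 4.99e-04), a 5.09-fold decrease, while 7.99% of all genes were called lower in that set. In replicates 1 to 6 the log2 fold change was -0.28 (95% interval -1.52 to 0.96, edgeR adjusted p = 0.789), with medians of 2.9 and 5.56 CPM. The difference between the sets was -2.08 on the log2 scale (95% interval -3.69 to -0.47), and its edgeR adjusted p was 0.0885. Among high-fat libraries alone Pnpla3 was lower in replicates 7 to 12 than in 1 to 6 (log2 difference -2.47, SE 0.57, edgeR adjusted p = 0.00703), where 3.89% of all genes were called lower. Pnpla3 shares 105 exon bases with Gm49513, which had 1 count or fewer in every library.

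Ratios within a library depend on the scaling between libraries only through the pseudocount of 1 CPM and were tested with two-sided permutation tests, adjusted over 9 ratios and called at an adjusted p under 0.05. G0s2 relative to Pnpla2 was lower in high-fat livers by 0.89 on the log2 scale (means of -0.46 ± 0.39 and 0.43 ± 0.70, SD, n = 12 per diet, adjusted p = 7.56e-04). All 12 high-fat libraries lay below the control median, and the exact p was 0.00216, the smallest possible, in replicates 7 to 12 and 0.123 in replicates 1 to 6. G0s2 relative to Abhd5 was also lower, by 0.78 (permutation test, adjusted p = 7.20e-04), so the inhibitor was lower against both the lipase and its coactivator. Abhd5 relative to Pnpla2 differed by -0.12 (permutation test, adjusted p = 0.514).

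Plin3 relative to Plin2 was higher in high-fat livers by 0.41 on the log2 scale (permutation test, adjusted p = 0.00385) and Cidec relative to Plin2 by 2.67 (permutation test, adjusted p = 3.60e-04), the latter without overlap in either set. The ratios of Pnpla3 to Pnpla2 (-0.77, adjusted p = 0.0596) and of Plin5 to Plin2 (-0.36, adjusted p = 0.188) did not pass the permutation test. Cidea relative to Cidec was lower by 1.67 (permutation test, adjusted p = 7.20e-04), but with a pseudocount of 0.1 in place of 1 the adjusted p was 0.163, and Cidea was at or near the floor in the 12 libraries numbered 1 to 6.

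**Figure D3:**
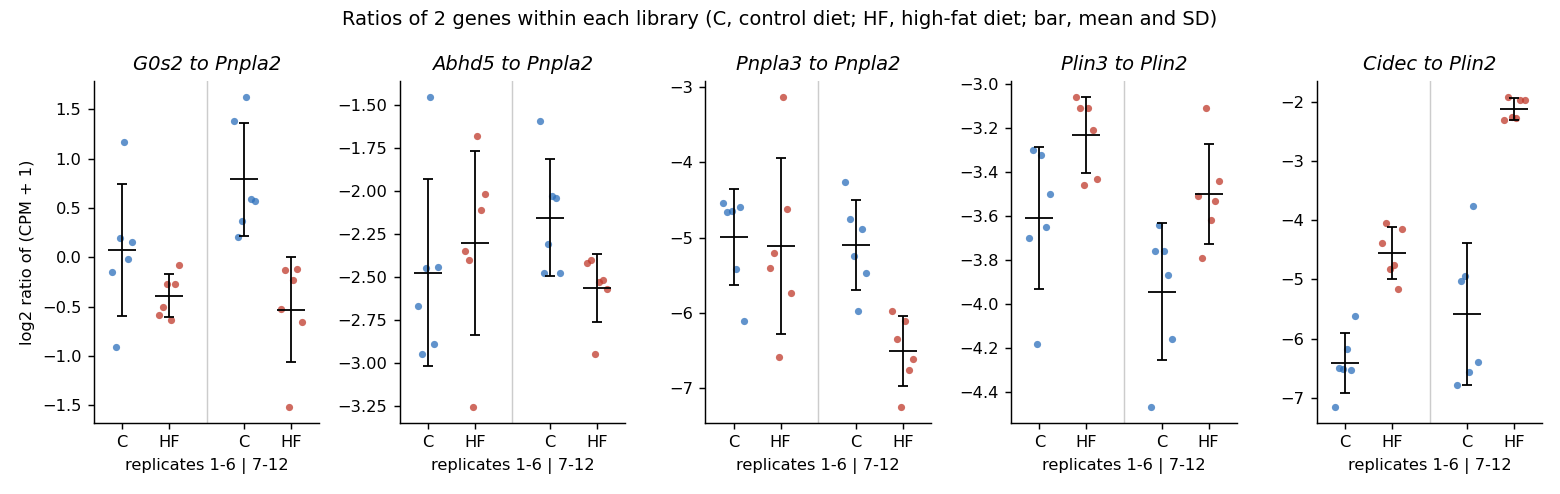
Log2 ratio of (CPM + 1) of 2 genes within each library, for control diet (C, blue) and high-fat diet (HF, red), replicates 1 to 6 on the left and 7 to 12 on the right of each panel; points are libraries and black bars are the mean and SD of 6 libraries. The ratio of Cidec to Plin2 separated the diets in both sets, that of G0s2 to Pnpla2 in replicates 7 to 12 only, and that of Abhd5 to Pnpla2 in neither.

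Levels can be compared between genes only per length, here as CPM per kilobase of exon. On the control diet the order of medians was G0s2 (229), Cideb (199.5), Plin2 (185), Pnpla2 (48.1), Plin5 (31.6), Plin3 (12.7), Cidec (3.98), Pnpla3 (2.88), Plin4 (2.48) and Cidea (0.167). The ranges of Plin2 and Pnpla2 did not overlap, and neither did those of Plin5 and Plin3, while all other neighbours in this order overlapped. On the high-fat diet the order was Cideb (187), Plin2 (181), G0s2 (121), Pnpla2 (50.7), Cidec (37.5), Plin5 (28.7), Plin3 (16.8), Plin4 (10.8), Cidea (1.19) and Pnpla3 (0.594), and only G0s2 and Pnpla2 did not overlap as neighbours. The place of Cidec differed between the sets, at 7 in high-fat and 8 in control livers in replicates 1 to 6 and at 4 and 7 in replicates 7 to 12. G0s2 was at place 3 in high-fat and place 1 in control livers in both sets.

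Across the 2 sets, diet effects were of the same sign for Plin3, Plin4, Cidec, G0s2 and Pnpla3, and of opposite signs for Plin5, Cideb and Pnpla2. Plin2 was near 0 in both sets (0.04, SE 0.10, and 0.01, SE 0.14). The sign of Cidea was not compared, as it was at or near the floor in replicates 1 to 6. In replicates 1 to 6, 2 of the 10 genes were called higher (2.90% of all genes) and 0 lower (0.882% of all genes). There 3 were above 0 and 2 below 0 at an unadjusted p under 0.05. No all-gene share was taken for that limit, so these counts are not read as a result. In replicates 7 to 12, 2 were called higher (14.4% of all genes) and 2 lower (7.99% of all genes). With the interaction of diet and set in edgeR, 0 of the 10 passed an adjusted p of 0.01, against 4.06% of all genes. At an unadjusted p under 0.05 there were 3 of the 10, again without an all-gene share. These were Cideb (-0.54, edgeR adjusted p = 0.0387), Pnpla3 and Plin5 (0.70, edgeR adjusted p = 0.196). No other tool was run on the interaction.

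**Figure D4:**
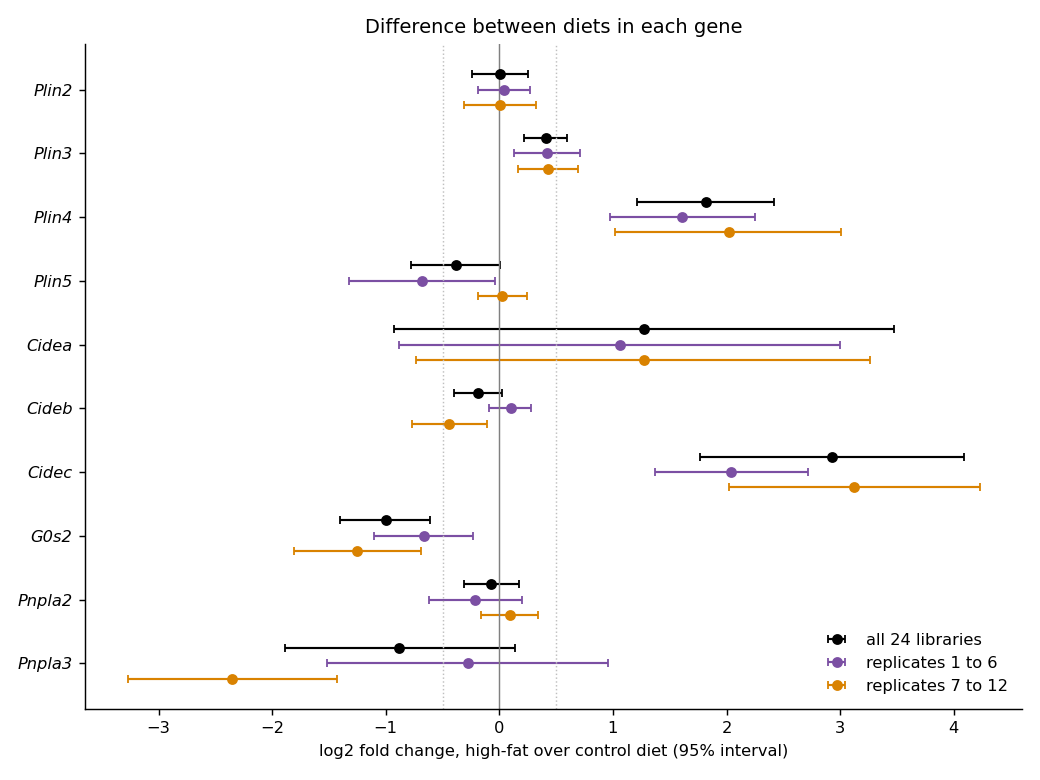
Log2 fold change of each gene, high-fat over control diet, with its 95% interval, over all 24 libraries (black), replicates 1 to 6 (purple) and replicates 7 to 12 (orange); dotted lines mark the fold threshold of 0.5 in either direction. Plin4 and Cidec lay above the threshold in each fit, from 1.61 to 2.02 and from 2.04 to 3.12, and Pnpla3 ranged from -2.35 to -0.28. Cidea was at or near the floor of 3 counts in replicates 1 to 6, so its purple point is not read as a fold.

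Other genes of droplet formation and of the droplet surface were mostly not called. Of 22 tested, 2 rose and 0 fell with edgeR, against 13.2% of all genes higher and 4.99% lower. Of the 22, 5 were above 0 and 7 below 0 at an unadjusted p under 0.05. No all-gene share was taken for that limit, so these counts are not read as a result. DESeq2 called 3 higher, with Tmem159 added, and limma-voom called 2. In edgeR Tmem159 had a log2 fold change of 0.67 (SE 0.20, edgeR adjusted p = 0.0112) and was not called. DESeq2 and limma-voom called 0 lower as well. Their median log2 fold change was -0.05 and -0.06, against -0.07 with edgeR and -0.03 for all genes. The genes that rose were Lpcat1 (0.87, SE 0.15, edgeR adjusted p = 7.09e-05) and Lpcat2 (1.61, SE 0.22, edgeR adjusted p = 5.20e-06), which make phosphatidylcholine for the monolayer. Lpcat2 was between 7.04 and 14.4 CPM in high-fat livers and between 1.09 and 6.88 CPM in control livers, without overlap, as was the case upward for 1.48% of all genes. Hilpda, an inhibitor of Pnpla2 induced by fatty acids and hypoxia, had a log2 fold change of 0.48 (SE 0.22, edgeR adjusted p = 0.0784). Hsd17b13, an abundant hepatocyte droplet protein, had 0.01 (SE 0.13, edgeR adjusted p = 0.978). Plin1 was below the filter, with at most 6 counts.

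Among 17 tested lipid hydrolases and cofactors, 1 rose and 4 fell, with a median of -0.37. Over all genes 13.2% were called higher and 4.99% lower, with a median of -0.03. The gene that rose was Lpl, lipoprotein lipase, which acts on circulating triglyceride at the vessel wall and not on droplets. It was between 71.8 and 221 CPM in high-fat livers and between 6.33 and 32.5 CPM in control livers. The diets did not overlap, as for 1.48% of all genes upward. The log2 fold change of Lpl was 3.39 (SE 0.28, edgeR adjusted p = 2.07e-08). The genes that fell were Ces3b (-1.80, SE 0.20), a carboxylesterase of the endoplasmic reticulum, Aadac (-0.74, SE 0.13), a microsomal deacetylase, hepatic lipase Lipc (-0.71, SE 0.17) and the phospholipase Ddhd2 (-0.56, SE 0.12), with edgeR adjusted p of 6.33e-07, 8.91e-05, 0.00201 and 5.51e-04. With library totals alone, only Ces3b of these 4 was still called lower.

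Of 15 tested transcription factors and coactivators of lipid genes, 1 rose and 2 fell, with a median of -0.32. The values over all genes were again 13.2% higher and 4.99% lower, with a median of -0.03. Pparg, the nuclear receptor that drives Cidec, Cidea and Plin4 in adipocytes, was between 12.9 and 28.4 CPM in high-fat livers and between 2.89 and 14.3 CPM in control livers. Its log2 fold change was 1.31 (SE 0.21, edgeR adjusted p = 3.18e-05). The highest control value of Pparg, 14.3 CPM, was in replicate 11, as for Cidec, Cidea and Plin4. The next, 13.8 CPM, was in replicate 6, which was not the next control library for Cidec, Cidea or Plin4. A link of Pparg to these genes in the livers was not tested. Ppara, the corresponding receptor of hepatocytes in fasting, had a log2 fold change of -0.50 (SE 0.21, edgeR adjusted p = 0.0603). The genes that fell were Ppargc1a (-0.80, SE 0.24, edgeR adjusted p = 0.00888) and Creb3l3 (-0.54, SE 0.08, edgeR adjusted p = 9.46e-06). With library totals alone neither was called.

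**Figure D5:**
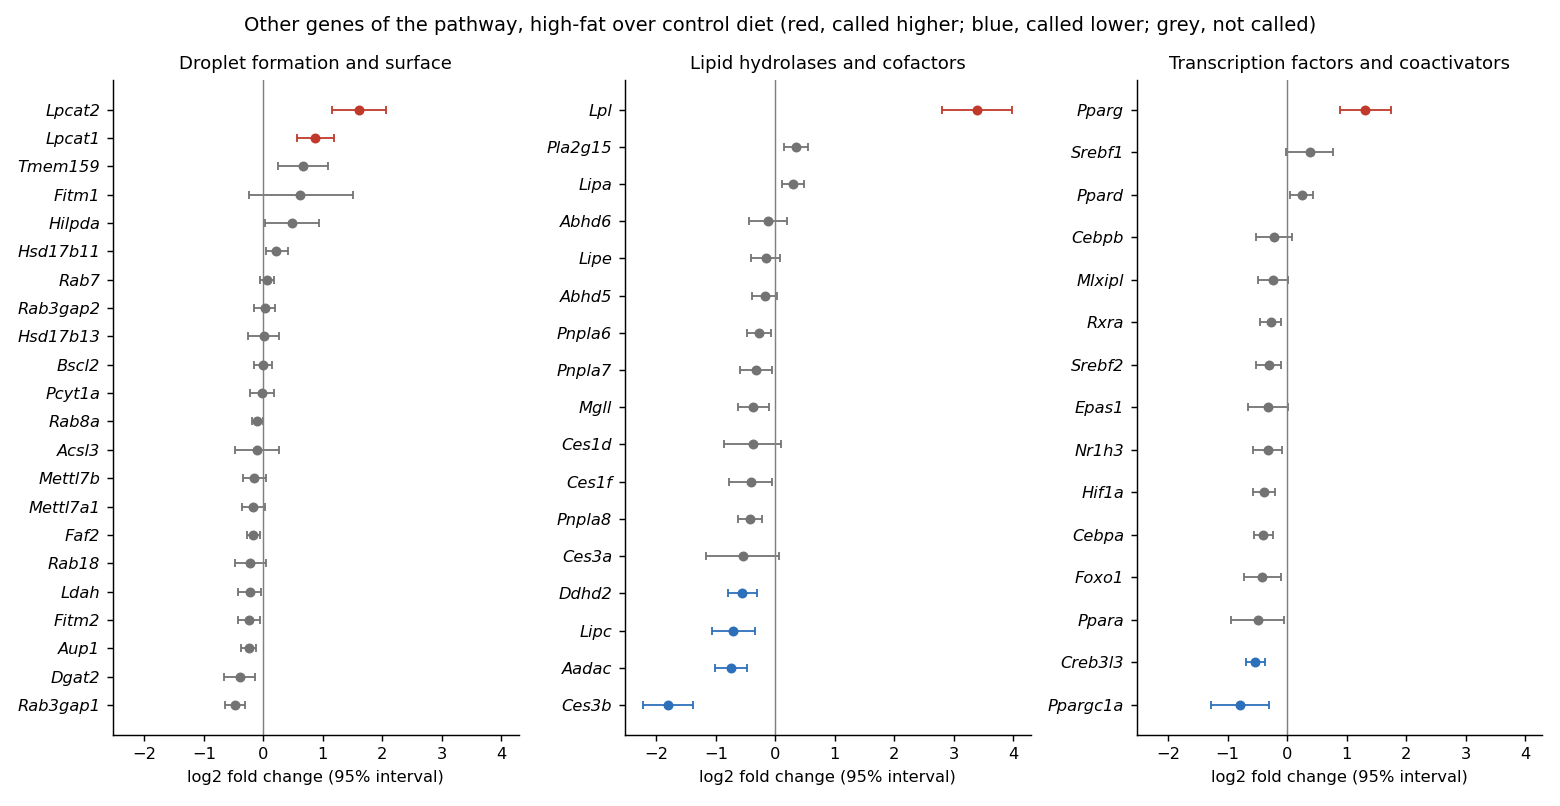
Log2 fold change, high-fat over control diet, with its 95% interval for the other tested genes of the pathway in all 24 libraries, in 3 panels ordered by fold change; red points were called higher, blue points lower and grey points were not called. Lpl had the highest value, 3.39, and Ces3b the lowest, -1.80.

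The genes most like 5 of the members across livers were sought by Pearson correlation of log2(CPM + 1) over the 24 libraries among 13927 genes, after the mean of each diet and set had been subtracted. These values describe libraries that share scaling and depth, and no test was made. For Cidec they were Vnn1 (r = 0.90), the fatty acid transporter Cd36 (r = 0.88) and Ephb2 (r = 0.85). For Cidea they were its antisense neighbour B430212C06Rik (r = 0.88), Fam126a (r = 0.86) and Cfd (r = 0.85), which is also on the list of adipocyte markers and was higher in replicates 7 to 12 than in 1 to 6 in high-fat livers (log2 difference 2.85, edgeR adjusted p = 0.0044). Cidea had at most 5 counts in each library numbered 1 to 6, so its correlations rest mainly on replicates 7 to 12. B430212C06Rik had a mean of only 10.2 counts. For Pnpla3 they were Dhcr7 (r = 0.94), an enzyme of cholesterol synthesis, fatty acid synthase Fasn (r = 0.94) and Chrna4 (r = 0.93). For Plin2 they were the liver fatty acid-binding protein Fabp1 (r = 0.81), glutamine synthetase Glul (r = 0.80) and Slc17a3 (r = 0.76). For G0s2 they were Cops8 (r = 0.86), Strap (r = 0.82) and the mitochondrial carnitine palmitoyltransferase Cpt2 (r = 0.81). Of these 15 genes, Fabp1, Slc17a3 and Dhcr7 fell in high-fat livers and Cd36 and Ephb2 rose.

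Markers of other cells moved with the diet beside these results, where 13.2% of all genes were called higher and 4.99% lower. Of 8 hepatocyte markers, 6 fell, among them Alb by 0.72 on the log2 scale, and their summed level was 39516 to 94542 CPM in high-fat livers and 88800.0 to 137228 CPM in control livers. With library totals alone, 3 of the 8 were called lower. Of 8 markers of monocyte-derived and lipid-laden macrophages, 8 rose, with a summed level of 328 to 1339 CPM against 95.5 to 321 CPM. Among these is Spp1, which is also on the cholangiocyte list and counts in both. Of 9 stellate cell and myofibroblast markers, 6 rose (365 to 849 against 159 to 430.1 CPM), as did 4 of 5 cholangiocyte markers (31.6 to 881 against 27.3 to 131 CPM), 2 of 6 resident macrophage markers (199.7 to 870.3 against 116 to 508 CPM) and 1 of 6 sinusoidal endothelial markers (145 to 335 against 139.9 to 299 CPM). In libraries numbered 7 to 12 the list of monocyte-derived macrophages reached 692 to 1339 CPM in high-fat livers and in 1 to 6 it reached 328 to 568 CPM. The resident macrophage list was 199.7 to 870.3 CPM (median 446) and 471 to 649 CPM (median 536) in the same libraries. The hepatocyte list was 39516 to 50249.7 CPM and 71093 to 94542 CPM in these. The part of these cells in the differences of Cidec, Plin4 and G0s2 was not tested. Of 9 adipocyte markers, with a summed level of 335 to 1657 against 530.3 to 2134 CPM, 4 passed the filter and Fabp4, which macrophages also express, was the only one called (log2 fold change 1.97). That sum was mostly Car3 and Fabp4. Cfd had at most 355 counts, Lipe at most 49.7 CPM, and the markers below the filter were near 0.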

How the data were processed

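Poly(A)-selected RNA of whole mouse liver was sequenced in 24 libraries, 12 for each diet. The authors deposited raw whole-number counts per Ensembl gene in a single table, with no scaling. The submitters' processing notes name bcl2fastq, STAR 2.7.3a and mm10. The methods of the study name a stranded mRNA kit, the exon quantification pipeline and PISCES, but only with a human reference. Which of these made the mouse counts, with which annotation and strand setting, is not given in the sources used here. Columns were matched to libraries by title, and the diet was read from the labels. Symbols, positions and exon lengths came from GENCODE M21 (GRCm38), which held 51745 of the 56205 gene IDs. The other 4460 carried 0.0723% of the counts.

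These deposited counts were fitted with edgeR 4.0.16 (R 4.3.3) by its quasi-likelihood F test after TMM scaling, with diet alone in the model and Benjamini-Hochberg adjustment. The filter of 1 or more counts in 12 or more libraries left 17913 genes. A call needed an adjusted p no higher than 0.01 and a log2 fold change beyond 0.5 in size, the limits the study used. Standard errors were derived from the F statistic and the fold change, and intervals are at 95%. The same test was run within each set of 12 libraries, for the interaction of diet and set, and, chosen after seeing the data, between the sets within each diet. CPM are counts per 1000000 TMM-scaled counts. Ratios were taken as log2(CPM + 1) differences and tested by permutation with 100000 resamples, or exactly over all 924 splits of 6 against 6. The fit was tested on simulated data. TMM factors were 0.994 to 1.341 in high-fat and 0.679 to 1.006 in control libraries. Counts differed beyond sampling noise between all libraries of a diet. The series text gives as many mice as libraries, but no label ties a library to an animal, so p-values measure the spread between these libraries. Intervals and floors cover counting error only where they rest on counts of a single library.

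The alternatives were DESeq2 1.42.0, limma-voom (limma 3.58.1), library totals or DESeq2 size factors, other filters and thresholds, the replicate number as a block, set as a term, 1 surrogate variable (sva 3.50.0), each set alone, each library left out and, chosen after seeing the data, 3 libraries left out together and the interaction without control replicate 10 or those 3. The genes, lists, sets and tests were chosen with earlier results of these data known. All 10 genes are named, and of each pathway list the called genes, at most 8 by size, together with Abhd5, Lipe, Mgll, Plin1, Hsd17b13, Hilpda, Pparg and Ppara. The 3 genes with at least 10 counts on average that correlated best are named for each of Plin2, Cidea, Cidec, G0s2 and Pnpla3. Promoters came from RefSeq (GRCm38.p6). Ldaf1 was read under its older symbol Tmem159, Spart had no M21 symbol, and Pnpla1 was below the filter.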

Additional observations from a re-analysis of the deposited data

Results flagged for a closer look

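The diet effect on Cideb differed between the 2 sets of libraries when the difference was tested at an adjusted p of at most 0.05. It was higher by 0.10 on the log2 scale on the high-fat diet in replicates 1 to 6 and lower by 0.44 in replicates 7 to 12, a difference of -0.54 (interaction of diet and set in edgeR, SE 0.17, adjusted p = 0.0387). It did not pass the adjusted p of 0.01 used elsewhere. Without control replicate 10 the difference was -0.40 (edgeR adjusted p = 0.0355), and without that library, control replicate 11 and high-fat replicate 9 it was -0.34 (edgeR adjusted p = 0.035), both chosen after seeing the data. Control replicate 10, with 506 CPM, lay in the second set. Cideb shares exon bases with Nop9, whose part in the difference was not tested.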

How the results depend on the processing

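The 10 genes gave the same calls, Cidec and Plin4 higher and G0s2 lower, with DESeq2, limma-voom, DESeq2 size factors, set as a term, 1 surrogate variable and without 3 libraries that stand apart. Set as a term gave 2.59 for Cidec and -1.22 for Pnpla3 (edgeR adjusted p = 0.0282), and 1 surrogate variable gave 2.57 and -1.15. Library totals alone gave 3827 genes higher and 226 lower, 11 pathway genes higher and 1 lower, and turned Cideb to 0.11 and Pnpla2 to 0.22. A minimum of 10 counts in every library left 1226 genes higher and 3 pathway genes lower. An adjusted p of 0.05 without a fold limit gave 3709 higher and 3388 lower, with 9 and 22 of the pathway genes, and a fold limit of 1 gave 216 lower, with 1 pathway gene. In replicates 1 to 6 alone, 520 genes were higher and 158 lower, with 0 of the 10 genes and 3 pathway genes lower and Cideb at 0.10. In replicates 7 to 12, 1431 genes were lower, with 2 of the 10 and 14 pathway genes, Plin5 at 0.02 and Pnpla2 at 0.09.

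Of the ratios in replicates 1 to 6, G0s2 to Pnpla2 (-0.47) and G0s2 to Abhd5 (-0.64) no longer passed and Abhd5 to Pnpla2 was 0.17. In replicates 7 to 12, Abhd5 to Pnpla2 (-0.41) and Pnpla3 to Pnpla2 (-1.42) passed and Plin5 to Plin2 was 0.03. A pseudocount of 0.1 gave -1.24 for Pnpla3 to Pnpla2, which then passed, and -1.28 for Cidea to Cidec, which did not. The causes of these changes were not tested, among them the smaller number of libraries in each set.

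With each library left out in turn, 1 to 2 of the 10 genes were lower (2 without high-fat replicate 4, when Pnpla3 was called), Plin2 was between -0.03 and 0.05, and the ratio of Pnpla3 to Pnpla2 was between -1.01 and -0.64, passing without high-fat replicate 4 or 5 or control replicate 6 or 10. The fit with the replicate number as a block called 2063 genes higher and 844 lower, and its calls of the 10 genes were again 2 higher and 1 lower. Deviations of same-numbered libraries correlated from -0.086 to 0.516 and 3 of 12 libraries correlated best with their own number, which falls short of a pairing by number. Depth limits Cidea in replicates 1 to 6, at 0 to 5 counts, and Pnpla3 in high-fat replicates 7 to 12, at 3 to 23 counts.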
